A study of Mus musculus with 6 samples.

Results

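The 8 genes described here encode RNA-binding and RNA-modifying proteins known to shape how circular RNAs (circRNAs) form: Adar, Adarb1, Dhx9, Zfr, Ilf2, Qki, Hnrnpl and Mbnl1. They were chosen by name, not by their values in these samples, and are 8 of the 32348 gene identifiers measured. Qki is listed in the files under its other symbol, Qk. The samples were hippocampi of healthy C57BL/6 males aged 14 months, one library each, in a DHT group and an oil group of 3 libraries each. The DHT group had received dihydrotestosterone, an androgen, under the skin, and the oil group medical corn oil, both daily over 14 days. No allele, surgery or other agent is given in the labels for either group, the dose is not given, and the sample descriptions call the DHT group a testosterone group. Nothing in the labels ties a library to a single mouse, so each p-value here speaks only for the spread among these libraries, part of which may be technical.

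A circRNA is a closed ring made when the spliceosome joins a downstream splice site to an upstream one, an event called back-splicing. Pairing between inverted repeats in the introns on both sides brings these splice sites together, and so do proteins that bind both introns. As textbook background, the editing enzymes Adar and Adarb1 convert adenosine to inosine in paired RNA and the helicase Dhx9 unwinds it, which both disfavour circles, while Ilf2 and the related Zfr act on paired RNA. Qki, Hnrnpl and Mbnl1 bind short single-stranded motifs in introns and are known to favour circles at particular exons, as the fly relative of Mbnl1 does on its own transcript. In the brain, where circRNAs are abundant, Qki is also the regulator of myelin gene splicing in oligodendrocytes.

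Adar illustrates how 1 of these genes can be read at the level of its promoters, since its start sites differ in the protein they give. The constitutive start gives the shorter nuclear enzyme, and an interferon-inducible start further downstream gives the longer p150 enzyme. Both are on chromosome 3, plus strand, and both first exons were measured here. The 250 bases before each RefSeq start (build GRCm38.p6) are shown because their first exons are compared next, with a run of 30 bases from just after the inducible start. Capitals mark matches to GAAANNGAA, the core of the element that interferon-regulated promoters are known to carry, searched on both strands.
Adar constitutive upstream, chr3:89714772-89715021: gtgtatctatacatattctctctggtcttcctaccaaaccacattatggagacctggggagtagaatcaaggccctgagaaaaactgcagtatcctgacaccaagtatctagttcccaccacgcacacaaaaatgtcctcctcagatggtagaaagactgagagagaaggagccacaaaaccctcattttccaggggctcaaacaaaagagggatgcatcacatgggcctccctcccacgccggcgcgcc
Adar inducible upstream, chr3:89730468-89730717: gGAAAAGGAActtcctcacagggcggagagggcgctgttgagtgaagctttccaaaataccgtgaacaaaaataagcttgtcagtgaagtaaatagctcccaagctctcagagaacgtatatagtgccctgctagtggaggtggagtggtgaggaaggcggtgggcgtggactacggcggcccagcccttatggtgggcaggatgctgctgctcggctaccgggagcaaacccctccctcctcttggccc
Adar inducible start, chr3:89730738-89730767: ttttcaaggaaacGAAAGTGAActctgggg
The inducible window of 300 bases held 2 matches, and the other 10 windows listed for the 8 genes held none. The Adar window with the matches was the one taken as inducible, so the matches are no test of that name. The same letters occurred in 8.55% of all 32817 promoter windows of that length. A longer form, with a further A at the end, was also searched on both strands. It occurred in 3.43% of all these windows. None of the windows listed for the 8 genes held it, the inducible Adar window included. The matches to the shorter form are a description of the sequence only.

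Across the libraries, back-splice junction reads numbered 43512 to 55325 in DHT and 43573 to 48212 in oil, out of 143 to 177 M (mega) and 154 to 159 M mapped reads. FPKM (fragments per kilobase per M mapped fragments) summed over genes was 94871 to 96063 in DHT and 87148 to 89596 in oil, without overlap, so values are also given after each library was centred on its median. Of 9 striatal markers 8 had a mean above 5 FPKM, with a summed level of 185 to 349 FPKM in DHT and 266 to 297 in oil, while of 10 markers of the hippocampal fields 2 did, and Dsp, Lct and Neurod2 were at 0 in all 6 libraries. The part of regional makeup in the values below was not tested, and fewer cells of a type cannot be told apart from less RNA per cell in bulk tissue.

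All 8 genes were expressed. On FPKM, which is per length, the order of the mean levels over the 6 libraries was Qki (23.9), Zfr (23.4), Hnrnpl (21.2), Mbnl1 (19.4), Adar (14.5), Ilf2 (11.8), Adarb1 (10.1) and Dhx9 (8.16). From Adar to Ilf2 the step was 2.72 times the larger SD and held in 6 of 6 libraries. Every other pair of neighbours in this order differed by at most 1.23 times the larger SD, which for all but Mbnl1 and Adar was under 1 SD. Mbnl1 was also above Adar in 6 of 6 libraries. Qki, Zfr, Hnrnpl and Mbnl1 were each above the 91st percentile of the 11368 genes tested, and Dhx9 was at the 75.7th percentile.

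**Figure D1:**
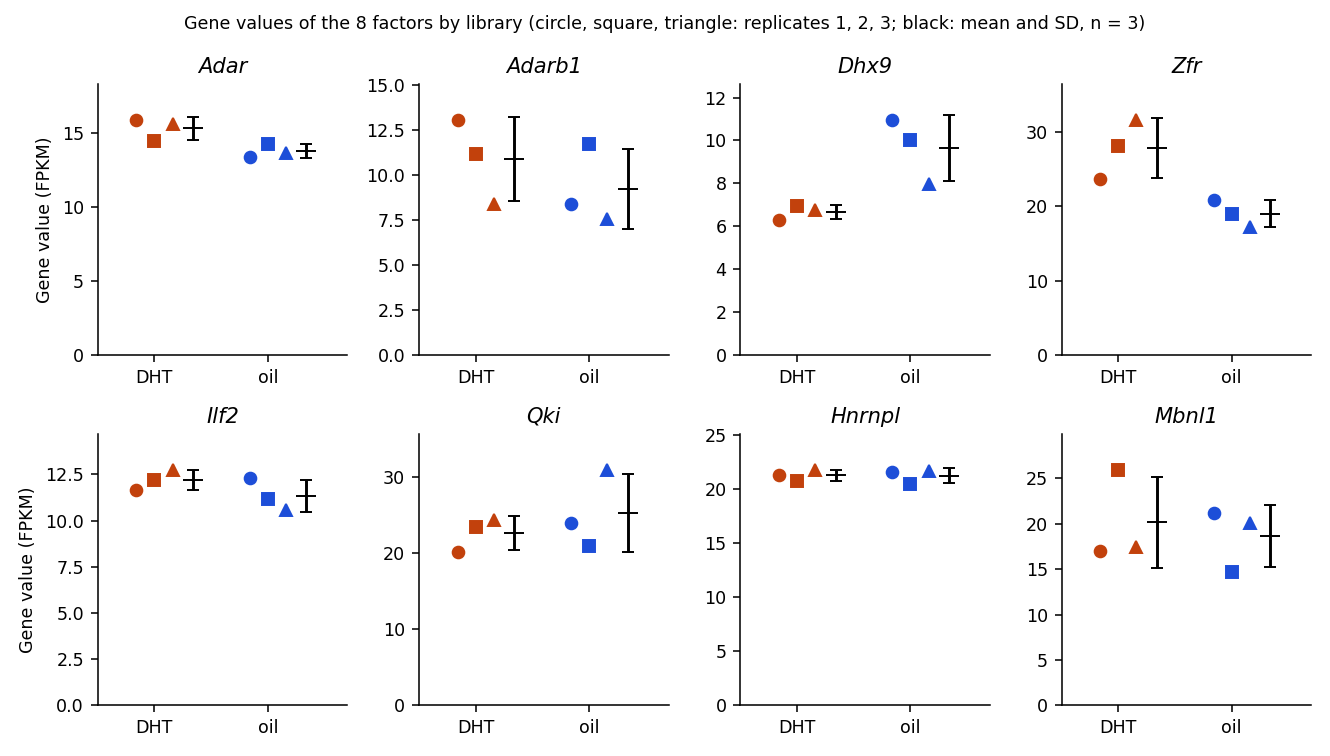
Gene value in FPKM (vertical axis, from 0) of each factor in the 3 DHT and 3 oil libraries, with the group mean and SD in black. Zfr and Adar are higher in every DHT library than in any oil library, Dhx9 is lower in every DHT library, and the groups of the other 5 overlap.

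Between DHT and oil, none of the 8 passed the threshold of an adjusted p under 0.05, against 0.0176% of all genes (limma, Benjamini-Hochberg over 11368 genes). At an unadjusted p under 0.05 there were 2 of the 8, Zfr and Dhx9, against 7.34% of all genes, and 3 had groups without overlap against 15.1% of all genes. Fold changes are on log2(FPKM + 0.5). Of the 8, 6 were higher and 2 lower in DHT, with a median of 0.10 beside 0.07 for all genes, of which 63.6% were higher. After centring, 5 were higher and 3 lower, with a median of 0.04 beside 0.01, and the groups of 3 (Zfr, Dhx9 and Hnrnpl) did not overlap against 13.0% of all genes.

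Among the double-stranded RNA binders, Zfr stood at 23.6, 28.1 and 31.6 FPKM in DHT 1, 2 and 3 and at 20.9, 19.0 and 17.2 FPKM in oil 1, 2 and 3. Every DHT library was above every oil library. The difference was 0.53 ± 0.14 (SE, n = 3 per group), or 1.44-fold, with a limma adjusted p of 0.652 and an unadjusted p of 0.0066. It was 0.47 after centring, where the groups again did not overlap. By the highest single event of the gene in each library, however, the groups of Zfr overlapped. An exon of Zfr (chr15:12162114-12162264) read 23.3, 27.8 and 31.3 FPKM in DHT and 25.7, 18.7 and 10.8 FPKM in oil. There oil 1 was above its own gene value and above DHT 1. Ilf2, a subunit of a complex that binds paired RNA, read 11.7, 12.2 and 12.7 FPKM in DHT and 12.3, 11.2 and 10.6 FPKM in oil. Its groups overlapped, and the difference was 0.10 ± 0.10 (SE, limma adjusted p = 0.804).

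Dhx9, the helicase that unwinds paired repeats, went the other way, at 6.31, 6.93 and 6.78 FPKM in DHT and 10.96, 10.02 and 7.98 FPKM in oil. Every oil library was above every DHT library. The difference was -0.49 ± 0.14 (SE, n = 3 per group), or 1.41-fold lower in DHT, with a limma adjusted p of 0.652 and an unadjusted p of 0.0089. It was -0.55 after centring, with the groups again apart.

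Adar, the more widely expressed editing enzyme, read 15.9, 14.5 and 15.6 FPKM in DHT and 13.4, 14.3 and 13.6 FPKM in oil. The groups did not overlap, but the gap between the lowest DHT and the highest oil library was small, and the groups overlapped after centring. The difference was 0.15 ± 0.09 (SE, limma adjusted p = 0.716), and 0.09 after centring. Adarb1, the editing enzyme that recodes neuronal glutamate receptors, ranged from 8.43 to 13.1 FPKM in DHT and from 7.55 to 11.8 FPKM in oil. Its groups overlapped through most of their range (0.23 ± 0.21, SE, limma adjusted p = 0.787).

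Among the single-strand binders, Hnrnpl was the steadiest of the 8, at 21.3, 20.8 and 21.8 FPKM in DHT and 21.6, 20.4 and 21.7 FPKM in oil. Its coefficient of variation over the 6 libraries was 2.57%, against 6.85% to 23.7% for the other 7. The difference was 0.00 ± 0.09 (SE, limma adjusted p = 0.994), and after centring it was -0.06, with every oil library above every DHT library. Qki read 20.1, 23.5 and 24.4 FPKM in DHT and 23.9, 20.9 and 30.9 FPKM in oil, with oil 3 above the other 5 libraries (-0.14 ± 0.16, SE, limma adjusted p = 0.836). Without oil 3 the difference was 0.01. Mbnl1 read 17.0, 25.9 and 17.5 FPKM in DHT and 21.2, 14.7 and 20.03 FPKM in oil, so that its highest and lowest libraries were DHT 2 and oil 2 (0.10 ± 0.21, SE, limma adjusted p = 0.916). Without DHT 2 the difference was -0.09.

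**Figure D2:**
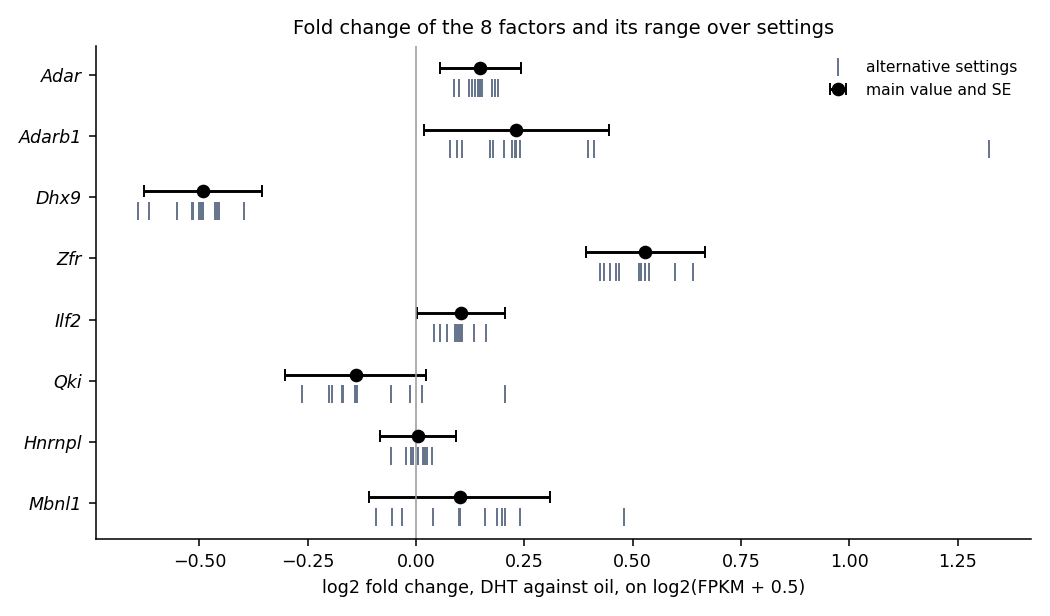
Log2 fold change of DHT against oil on log2(FPKM + 0.5) (horizontal axis) for each factor, with the main value and its SE in black and the values under other settings as grey ticks. Zfr stays between 0.42 and 0.64 and Dhx9 between -0.64 and -0.40, while Qki, Hnrnpl and Mbnl1 have ticks on both sides of 0.

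The genes were next read by their first exons, since the gene value of most of them is a sum over starts. The 8 genes had 17 first exons whose mean reached 0.5 FPKM. Dhx9, Ilf2 and Adarb1 had 1 each, Adar and Qki 2, Hnrnpl and Zfr 3, and Mbnl1 4. The groups did not overlap at 1 of the 17, that of Dhx9, against 13.4% of all first exons with such a mean.

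At Adar, the constitutive first exon (chr3:89715022-89715150) was at 9.11, 9.73 and 8.80 FPKM in DHT and 7.40, 9.03 and 9.10 FPKM in oil. The first exon at the inducible start (chr3:89730748-89730838) was at 6.60, 4.53 and 6.48 FPKM in DHT and 5.80, 5.08 and 4.34 FPKM in oil. The inducible start thus gave 38.1% ± 5.89 of the Adar first-exon value in DHT and 36.9% ± 5.92 in oil (SD, n = 3 each), a difference well within the SD. Both starts contributed in all 6 libraries.

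At Zfr, the groups lay apart in FPKM for the sum of the starts and for none of them alone. The first exon at the RefSeq start (chr15:12117831-12117947) was at 14.0, 15.3 and 19.6 FPKM in DHT and 8.14, 18.7 and 10.9 FPKM in oil, with overlap. An internal first exon (chr15:12159620-12159761) was at 9.42, 12.7 and 11.9 FPKM in DHT and 10.98, 0.16 and 0 FPKM in oil. Oil 2 and oil 3 were thus at or near 0 at a start that the other 4 libraries had at similar levels. Oil 3 alone had 4.21 FPKM at a further internal start (chr15:12170276-12170913). Whether the low values mark an unused start or a failed FPKM estimate was not tested. The listed last exon of Zfr was at 0.00 FPKM in every library to the 2 decimals given, so its gene value rests on first exons alone.

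The value of Qki was also divided between its starts differently from library to library. Here too a listed 0 may stand for a failed FPKM estimate. Its upstream first exon (chr17:10318732-10319380) was at 13.8, 7.08 and 7.40 FPKM in DHT and 13.0, 10.6 and 30.9 FPKM in oil. The downstream one (chr17:10282839-10282933) was at 6.24, 16.4 and 17.0 FPKM in DHT and 10.8, 9.29 and 0 FPKM in oil. In oil 3, the library with the highest Qki value, all of it was assigned to the upstream start. In Hnrnpl, DHT 2 stood apart from the other 5 libraries: its starts at chr7:28808541-28808859 and chr7:28810890-28811168 gave 46.0% and 35.6% of the first-exon value, where the other libraries had 7.79% to 14.5% and 70.0% to 82.9%. Of the 4 Mbnl1 starts, the one with the highest mean (chr3:60595711-60595764) held 69.6%, 55.1% and 1.005% of the value in DHT and 71.2%, 21.5% and 33.2% in oil. The groups overlapped at all of these starts of Qki, Hnrnpl and Mbnl1.

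**Figure D3:**
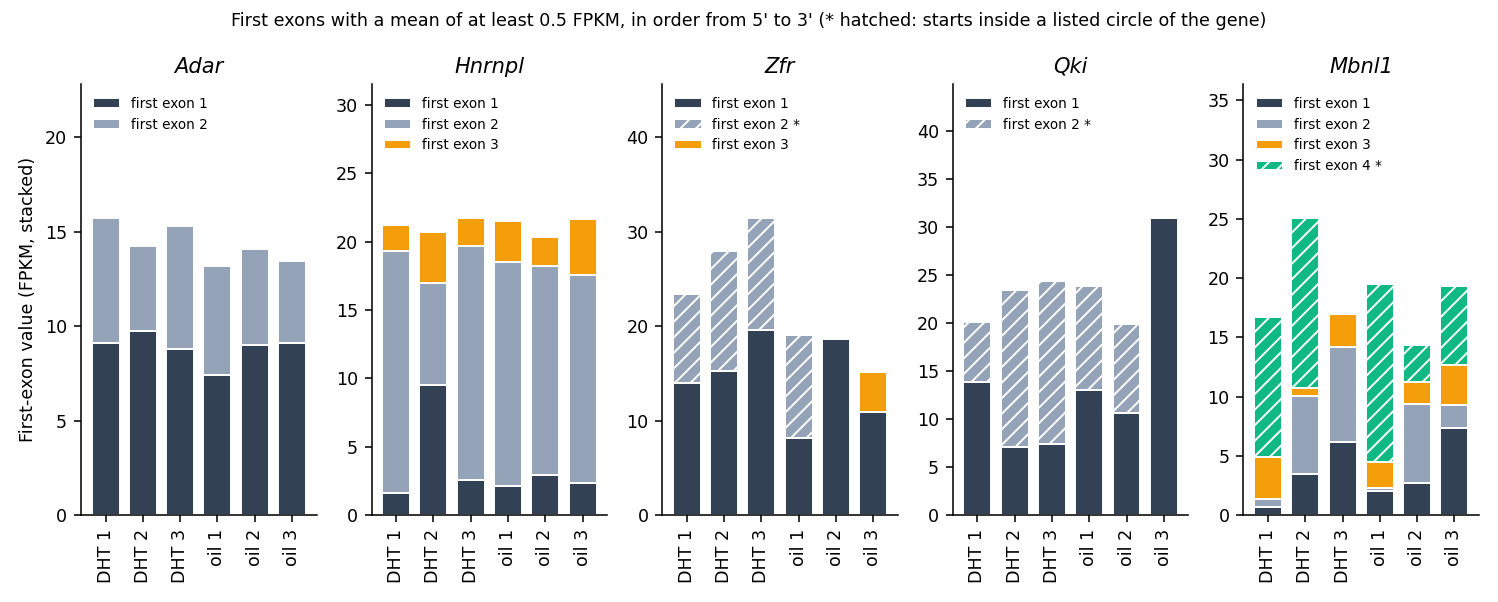
First-exon values in FPKM (vertical axis, stacked, from 0) in each library for the 5 factors with more than 1 first exon at a mean of 0.5 FPKM or more, coloured in 5′ to 3′ order and hatched where the first exon starts inside a listed circle of the same gene. The hatched Zfr exon is at or near 0 in oil 2 and oil 3, and the hatched Qki exon is at 0 in oil 3.

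A start each of Zfr, Qki and Mbnl1 lay near the end of a listed circRNA. The Zfr start at 12159620, the downstream Qki start and the Mbnl1 start at 60595711 begin just inside the 5′ end of a circRNA listed for the same gene, by 21, 48 and 117 bases, while the other starts of these genes do not. Counting starts up to 150 bases inside a circle, these were 3 of the 17 first exons, or 17.6%. Of all 15940 first exons with the same minimum the share was 0.985%, and of the 5369 in genes with a listed circRNA it was 2.66%. The 17 include first exons of Adar and Hnrnpl, which had no listed circRNA. The limit of 150 bases was not among the planned settings and lies above all 3 distances, so these shares are a description only. The Zfr circle there (chr15:12159599-12160690) had 0, 2 and 2 junction reads in DHT and 3, 2 and 0 in oil, and so had reads in oil 2, where the first exon was at 0.16 FPKM. The Qki circle had 13 reads in oil 3, where the first exon inside it was at 0.

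At the 3′ end, Dhx9 also divided its value between last exons. The main one (chr1:153455758-153456753) was at 6.22, 6.82 and 1.33 FPKM in DHT and 7.15, 7.65 and 7.80 FPKM in oil, and an earlier one (chr1:153464342-153464413) at 0, 0 and 5.39 FPKM in DHT and 3.81, 2.37 and 0 FPKM in oil. The order of the groups was the same by the sum of last exons as by the first exon. The last exon of Adarb1 was at 7.30 FPKM in DHT 1 and at 0.00 in the other 5 libraries, so this gene too was measured by its first exons.

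Splicing inside the genes was read as pairs of an on form, taken from the event names as the one that keeps the exon or intron, and an off form that lacks it. Of the 54 pairs in the 8 genes, 42 had a mean total of at least 1 FPKM and were tested with limma on log2((on + 0.5)/(off + 0.5)). None was called, against 0.0266% of all 30110 pairs tested, and 2 had an unadjusted p under 0.05 against 4.78%. The groups' on shares did not overlap in 2 of 41 pairs with a share in every library, against 4.99%. Adjusted p-values over the 42 were 0.913 or higher.

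The 2 pairs with the smaller unadjusted p lay in the editing enzymes. In Adar, a stretch of several introns kept together (chr3:89739971-89745376) had 0 FPKM in DHT 1, 2 and 3 and in oil 2, and 1.39 and 1.84 FPKM in oil 1 and oil 3, beside 8.05 to 11.97 FPKM of the spliced form (-1.68 ± 0.67, SE, limma adjusted p = 0.913). In Adarb1, a cassette exon of 73 bases (chr10:77325619-77325691) was kept at 1.69 and 0.58 FPKM in DHT 1 and DHT 2 and at 0.01 FPKM or less in the other 4 libraries, beside 5.96 to 8.36 FPKM without it (1.29 ± 0.48, SE, limma adjusted p = 0.913). Each difference rested on 2 libraries, and the groups overlapped in both.

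Other pairs of the 8 genes were mostly near all or nothing. A Qki exon of 117 bases (chr17:10273947-10274063) was kept in 99.7% to 100% of its value in each library, and another Qki event (chr17:10215023-10215474) had an on form in oil 1 only, at 1.91 FPKM. In Zfr the exons at chr15:12170816-12170913 and chr15:12118239-12118338 were kept in 98.1% to 99.6% and 99.5% to 99.7% of their values, except for 85.1% in oil 3 and 68.7% in oil 1. Ilf2 kept its intron at chr3:90486912-90486983 in under 1 percent of its value. The second Adar event, an exon at chr3:89734842-89736273, was kept in 98.9% or more of its value. The second Adarb1 exon (chr10:77387259-77387338) was kept in at most 0.26%. In Dhx9, the kept intron at chr1:153464712-153464855 and the exon at chr1:153476424-153476562 held the same on values, 0.17 FPKM or less.

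Hnrnpl carried the 2 pairs whose groups did not overlap. Its intron at chr7:28818532-28818644, of 113 bases, was kept at 0.66, 0.52 and 0.60 FPKM in DHT and at 0.19, 0.39 and 0.42 FPKM in oil, which were 3.30%, 3.08% and 2.98% of its value in DHT and 0.93%, 2.00% and 2.39% in oil. All DHT libraries were above all oil libraries, with a difference of 0.43 ± 0.25 (SE, limma adjusted p = 0.913). The second Hnrnpl pair counted the same intron with another off form and gave 0.40 ± 0.28. They share their on values and are not independent.

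Mbnl1 had 25 of the 54 pairs. The exon of 54 bases (chr3:60614683-60614736) has the length of the exon that Mbnl1 protein is known to repress in its own transcript. It was kept in 65.8%, 9.96% and 4.97% of its value in DHT and in 16.2%, 31.5% and 57.3% in oil. The spread within each group was wider than the difference (-0.74 ± 1.19, SE, limma adjusted p = 0.940). The 2 Mbnl1 pairs with the smallest p were stretches of several exons: that at chr3:60621423-60622240 was kept in 99.7% to 100% of its value in DHT and 71.0% to 100% in oil (1.78 ± 0.74, SE, limma adjusted p = 0.913), and that at chr3:60596719-60603894 in 88.7% to 100% and in 100% (-0.66 ± 0.27, SE, limma adjusted p = 0.913).

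The factors' own circRNAs were listed next. Of 11895 listed circRNAs 15 came from 6 of the 8 genes, with 272 junction reads, or 0.0950% of all. There were 6 from Zfr, 4 from Qki, 2 from Mbnl1 and 1 each from Adarb1, Dhx9 and Ilf2. None was listed for Adar or Hnrnpl, and a circle with a single read in a library is not listed. For comparison, 39.4% of the 4539 genes at a mean of 5 FPKM or more had a listed circRNA. The intronic Adarb1 circle had 3 and 4 reads in DHT 1 and DHT 2, and those of Dhx9 and Ilf2 had 2 reads in 1 library each. Of the 2 Mbnl1 circles, both starting at chr3:60595594, the shorter (to 60603894) had 2 reads in DHT 1 and 8 in oil 2 and the longer (to 60615773) 3 reads in oil 2.

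The 4 circles with at least 20 reads over the libraries, all exonic, were in Qki and Zfr. The Qki circle at chr17:10238893-10282981, the most abundant, had 14, 14 and 29 reads in DHT and 17, 14 and 13 in oil, with DHT 3 above the rest. The second Qki circle (chr17:10213359-10217803) had 13, 4 and 12 reads in DHT and 10, 11 and 5 in oil. The Zfr circles began at the same base, and the shorter (chr15:12136396-12171854) had 3, 3 and 5 reads in DHT and 4 in each oil library. The longer (chr15:12136396-12184166) had 3, 2 and 3 reads in DHT and 6, 2 and 4 in oil. By edgeR's quasi-likelihood test the differences were 0.28 ± 0.41, 0.05 ± 0.55, -0.22 ± 1.09 and -0.66 ± 1.20 (log2, SE) in this order, all with an adjusted p of 0.996. None was called, as for all 2524 circRNAs tested (0%), of which 79 (3.13%) had an unadjusted p under 0.05 with edgeR and 73 with DESeq2, which also called 0. Without DHT 3 the Qki differences were -0.23 and -0.20. At 2 to 29 reads per library, a difference of the size of these standard errors was not detectable.

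Relative to linear reads at the same place, these circles were minor products. Junction reads were 1.08% ± 0.48 of junction plus linear reads in DHT and 0.88% ± 0.10 in oil for the more abundant Qki circle, and 0.52% ± 0.29 and 0.50% ± 0.18 for the other (SD, n = 3). For the Zfr circles the shares were 0.35% ± 0.16 in DHT and 0.50% ± 0.03 in oil for the shorter, and 0.44% ± 0.08 and 0.74% ± 0.32 for the longer. The median over the 1581 circRNAs listed in all 6 libraries was 5.04%, and these 4 lay at the 7.84th, 2.85th, 1.96th and 3.73rd percentiles. In limma on the log2 ratio with 0.5 reads added, none of the 4 was called (adjusted p of 0.940 to 0.994), as for all 1581 (0%), of which 5.31% had an unadjusted p under 0.05.

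**Figure D4:**
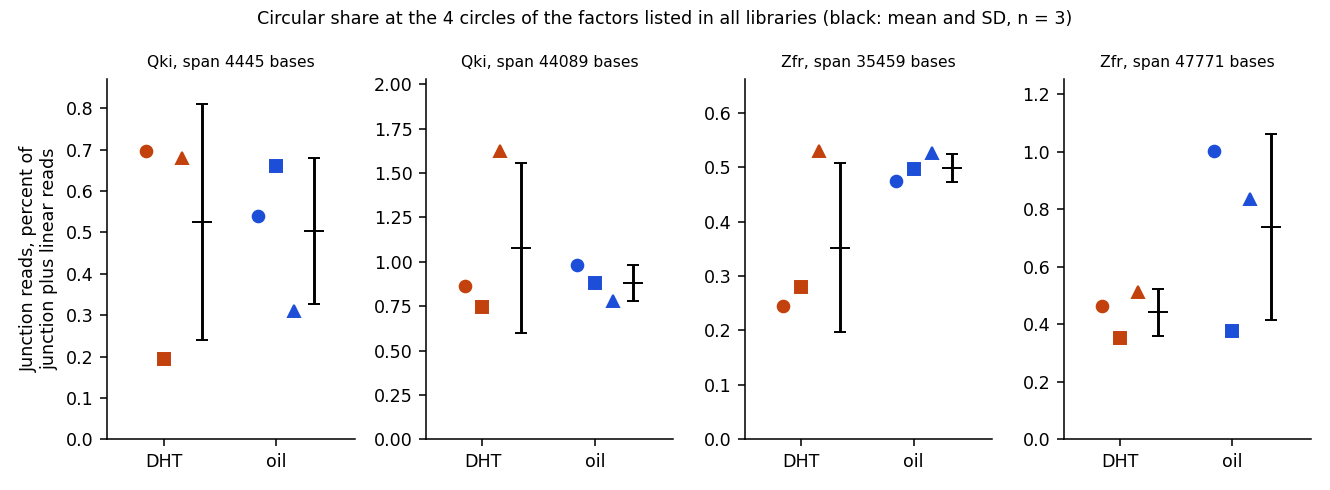
Junction reads as a percent of junction plus linear reads (vertical axis, from 0) in each library for the 4 circles of the factors listed in all 6 libraries, with the mean and SD of each group in black. The groups overlap at all 4.

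The linear reads add a measure of Zfr that does not use FPKM. At its shorter circle they numbered 6.88, 6.39 and 6.55 per M mapped reads in DHT and 5.29, 5.195 and 4.84 in oil. Every DHT library was above every oil library, as at 10.2% of the 1581 circRNAs listed in all libraries. At the longer Zfr circle they were 3.70 ± 0.35 per M in DHT and 3.398 ± 0.35 in oil (SD, n = 3), with overlap. At the Qki circles the groups overlapped.

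Each library's output of circRNAs was then set beside these genes. Junction reads per M mapped reads were 312, 299 and 304 in DHT and 304, 297 and 279 in oil. The means, 304.7 ± 6.79 and 293 ± 13.0 (SD, n = 3), were 11.5 apart (exact two-sided permutation test, p = 0.3, where 0.1 is the smallest value 3 against 3 can give). Without oil 3 the difference was 4.31. Without circles of an unplaced scaffold it was 19.8 (exact permutation p = 0.2). Counting only circRNAs listed in all libraries gave 214 ± 3.33 and 212 ± 6.80 (exact permutation p = 0.8).

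Over the 6 libraries, none of the 8 relations between gene value and junction reads per M passed after Benjamini-Hochberg adjustment over the 8. Pearson's r was -0.842 for Qki (exact permutation p = 0.051, adjusted 0.387), with Spearman's rho of -0.486 (exact permutation p = 0.356, adjusted 0.663). It was 0.700 for Ilf2 (rho 0.600), 0.621 for Adar (rho 0.429), 0.576 for Adarb1 (rho 0.429) and 0.571 for Zfr (rho 0.543), with exact permutation p-values of 0.114 to 0.242 for r, all adjusted to 0.387, and 0.242 to 0.419 for rho, all adjusted to 0.663. It was -0.207 for Dhx9 (rho -0.371), -0.182 for Mbnl1 (rho -0.029) and -0.080 for Hnrnpl (rho 0.086), with exact permutation p-values of 0.725 to 0.881 for r (adjusted 0.833 to 0.881) and 0.497 to 1.0 for rho (adjusted 0.663 to 1.0). Without DHT 1 and oil 3, the libraries farthest from the median of junction reads, r for Qki was 0.823, so that its negative relation rested on those libraries.

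**Figure D5:**
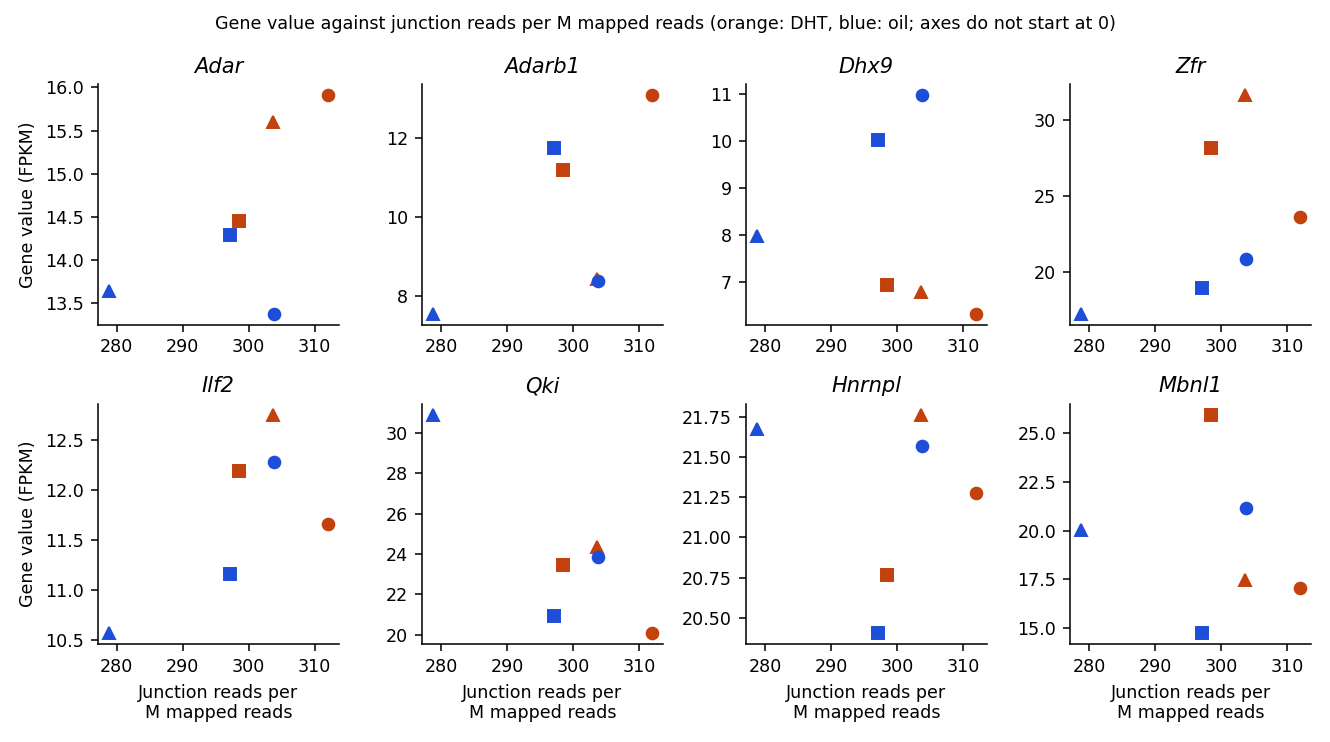
Gene value in FPKM (vertical axes, not starting at 0) of each factor against junction reads per M mapped reads (horizontal axis) in the DHT (orange) and oil (blue) libraries. Oil 3, at 279 junction reads per M, is the leftmost point in each panel and has the highest Qki value, 30.9 FPKM.

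Of the genes most alike to each in pattern, by Pearson's r of log2(FPKM + 0.5) over the 6 libraries among 4538 genes at a mean of 5 FPKM or more, those for Zfr were Actg1 (r = 0.993) and Ddah1 (0.991), and the one for Dhx9 was Neto2 (0.974). For Adar they were Yif1b (0.983) and Ppib (0.975), for Adarb1 Noc2l (0.995) and Crip2 (0.981), and for Ilf2 Cnot10 (0.992) and Keap1 (0.989). Qki was most like Kif2a (0.986) and Cd9 (0.983), Hnrnpl like Dnmt3a (0.977) and Snx27 (0.974), and Mbnl1 like Bmp1 (0.982) and Dgat2 (0.973). With 6 libraries these are descriptions, chosen as the highest of many.

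Other genes of the same machinery were counted from 4 lists. No gene of the 4 lists was called, against 0.0176% of all genes (limma). The counts below at an unadjusted p under 0.05 stand beside 7.34% of all genes (limma). In the order below, the groups of 2, 2, 3 and 3 tested genes did not overlap, against 15.1% of all genes. Of 13 close relatives and partners of the 8, 11 were tested, 5 higher and 6 lower in DHT, with a median of -0.02 beside 0.07 for all genes and 1 at an unadjusted p under 0.05. That was Adarb2, an editing relative without known enzyme activity, at 2.95, 2.61 and 3.24 FPKM in DHT and 3.65, 4.15 and 3.48 in oil (-0.31 ± 0.12, SE, limma adjusted p = 0.658). Stau2 (-0.49 ± 0.24) and Zfr2 (0.55 ± 0.28) had overlapping groups. Mbnl2, a paralog of Mbnl1, was at 0.11 ± 0.08 and Hnrnpll at -0.02 ± 0.13. Mbnl2 was at 29.3 to 30.04 FPKM in DHT and 27.2 to 27.6 FPKM in oil, without overlap.

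Among 35 other RNA-binding proteins tied to circle formation, 30 were tested, 13 higher and 17 lower, with a median of -0.05 and 2 at an unadjusted p under 0.05. Tardbp, which represses cryptic exons, was at 7.34, 9.58 and 6.85 FPKM in DHT and 12.3, 12.8 and 14.0 FPKM in oil. Every DHT library was below every oil library (-0.70 ± 0.14, SE, limma adjusted p = 0.652), and the direction turned when only first exons were summed (0.13). Rbm25 was at -0.41 ± 0.17 and Srsf1, of the SR family of splicing factors, at 0.39 ± 0.17.

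All 25 core spliceosome genes were tested, 18 higher and 7 lower, beside 63.6% of all genes higher. After centring 15 were higher, beside 51.4% of all genes. Their median before centring was 0.09, beside 0.07 for all genes, and 1 was at an unadjusted p under 0.05. That was Eftud2, the GTPase of the U5 particle, at 5.75 ± 0.55 FPKM in DHT and 7.34 ± 0.92 FPKM in oil (SD, n = 3). Snrpa, of the U1 particle, was at 0.25 ± 0.11 and Sf3a1 at 0.22 ± 0.12 (log2, SE). Of 25 genes for export, modification and decay of circles, 17 were tested, 10 higher and 7 lower, with a median of 0.05 and 1 at an unadjusted p under 0.05. Ythdf2, the reader of methylated adenosine that can lead circRNAs to cleavage, was at 3.44, 3.60 and 3.21 FPKM in DHT and 2.19, 1.196 and 1.53 FPKM in oil. The groups were apart (0.90 ± 0.18, SE, limma adjusted p = 0.652). Upf1 was at 0.18 ± 0.10 and Dicer1 at -0.36 ± 0.23.

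Marker genes of other cell types did not pass the threshold either. The 10 oligodendrocyte markers summed to 389 to 472 FPKM in DHT and 336 to 403 FPKM in oil. Of these, 9 of 9 tested were higher in DHT, or 7 after centring. Of all genes, 63.6% were higher before centring and 51.4% after it. Of the neuronal markers 3 of 7 tested were higher, with sums of 617 to 862 and 710 to 799 FPKM, and of the astrocyte markers 6 of 8 (4 after centring), with sums of 353 to 383 and 346 to 367 FPKM. Of the 10 microglial markers 7 of 8 tested were higher (6 after centring), with sums of 54.6 to 77.8 and 54.8 to 72.8 FPKM. The 4 choroid plexus markers summed to 0.99 to 30.7 and 2.94 to 78.8 FPKM, and the 4 blood markers to 109 to 451 and 109 to 198 FPKM. The part of cell makeup in the values of Zfr, Dhx9 and Adar was not tested.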

How the data were processed

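The authors deposited back-splice junction read counts, linear read counts and a score per circRNA in each library. They list only circRNAs with at least 2 reads. The score is SRPBM (junction reads per G mapped reads, per the labels) rounded down to whole numbers, and it gave the mapped reads of each library. The authors' FPKM values belong to first-exon, last-exon and splicing events, per the file headers, and not to genes. Tools in the submitters' processing notes are HISAT2 2.0.1, BWA, cutadapt and bcl2fastq 2.17.1.14. The circRNA caller, the FPKM tool and the counting of linear reads were not given in the sources used here. Those notes name mm9, but 99.5% of 11392 circRNAs lay within GRCm38 bounds of their host gene, so coordinates are given as GRCm38. Gene names matched 99.7% of identifiers.

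A gene value is the larger of the first-exon and last-exon sums of a locus in a library, added over loci of one identifier. Genes whose mean reached 0.5 FPKM were fitted with limma 3.58.1 on log2(FPKM + 0.5), circRNAs with at least 20 reads with edgeR 4.0.16 (TMM) on counts, with DESeq2 1.42.0 as an alternative, and splicing pairs and circular to linear ratios with limma, in R 4.3.3. SE and p are from these fits, and adjusted p-values are Benjamini-Hochberg's over each whole table. The tests were checked on simulated data. A listed 0 may stand for a failed FPKM estimate, and without stranded counts overlapping genes cannot be told apart. Single values were compared by exact permutation tests over every arrangement of the libraries (numpy 2.4.6), and ranks for rho came from scipy 1.17.1. Named beside the 8 genes are up to 2 splicing pairs per gene and 3 genes per list with the smallest p, fixed relatives, circles of at least 20 reads and the 2 genes most alike in pattern. Some genes that this rule names are not reported here. Mbnl1's exon of 54 bases, the Zfr exon at 12162114 and the first and last exons described were chosen after their values were seen. The genes, lists and tests were chosen with earlier results of these data known. Replicate numbers only name libraries.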

Additional observations from a re-analysis of the deposited data

How the results depend on the processing

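None of the 8 genes passed an adjusted p of 0.05 under any alternative run for gene values (pseudocount, filter, way of summing events, centring, libraries left out), and the lowest adjusted p was 0.481, for Dhx9. Over all genes, the 2 called became 1 with a pseudocount of 0.1 FPKM, with a mean of at least 2 FPKM, or without DHT 2 and oil 3 together, and 0 by first exons, last exons or the fullest event alone. With single libraries left out they were 0 to 4 (0 without DHT 1, DHT 3, oil 1 or oil 2, 3 without oil 3 and 4 without DHT 2). The 0 called circRNAs became 5 with no filter on low counts, and 0 to 1 with a library left out. The 8 called splicing pairs became 3 with no filter, 4 with a mean total of at least 4 FPKM, and 0 without any one library. Called circular to linear ratios were 0 to 1. The cause of these changes was not tested beyond the samples and features that each alternative removes.

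Zfr, Dhx9, Adar, Adarb1 and Ilf2 kept the direction of their gene value throughout, though Zfr could not be measured by last exons. Other directions turned. By last exons alone, Qki was at 0.20 and Stau2 at 0.025 (log2). By first exons alone, Tardbp was at 0.13 and Hnrnpll at 0.056. By the fullest event, Hnrnpl was at -0.0080 and Hnrnpll at 0.011. After centring, Hnrnpl was at -0.058. Without DHT 2 and oil 3 together, Mbnl1 was at -0.032 and Hnrnpll at 0.095. With a pseudocount of 1 FPKM, the Qki event at 10215023 was at 0.015. With 1 library left out in turn, the range was -0.26 to 0.013 for Qki, -0.023 to 0.020 for Hnrnpl, -0.091 to 0.21 for Mbnl1 and -0.12 to 0.073 for Hnrnpll. It was -0.34 to 0.063 and -0.83 to 0.66 for the Qki splicing pairs at 10273947 and 10215023. For the Qki circle at 10213359 it was -0.20 to 0.42, and -0.37 to 0.49 as a ratio to linear reads. For that at 10238893 it was -0.23 to 0.51, and -0.13 to 0.43 as a ratio. Correlations with junction reads turned without DHT 1 and oil 3 to -0.998 for Adarb1, 0.823 for Qki, 0.989 for Hnrnpl and 0.129 for Mbnl1, and by last exons to 0.627 for Hnrnpl and 0.174 for Mbnl1. For the named genes, circles and splicing pairs, the other 253 values with a library left out and 269 values under other alternatives kept their direction and side of the threshold. No paired analysis was possible because the labels give no replicate number that both groups share, and the numbers 1 to 3 used here only name libraries in accession order. Depth limits the tested circles, at 2 to 29 junction reads per library.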
